A study of Mus musculus with 8 samples.

Results

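The genes described here are 28 genes of cholesterol synthesis and sterol handling in the cortex of newborn mice. They were taken by name from the array: 41 probes carried one of the 28 gene names, 40 of these passed the filter on dim probes, and each of the 28 genes was measured, among 19751 genes tested. The rule used gene names and no measured value, although earlier results of these data were known when it was set. The set holds the enzymes from acetoacetyl-CoA to the last sterols, the genes that sense sterols and control transcription, and genes that move, esterify or release cholesterol. The gene written Sc4mol, as on the array, is now named Msmo1.

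The samples were cortices of male C57BL/6NCr pups at postnatal day 1.5, 1 pup per one-colour Agilent 8x60K array. In the ischemia group, 4 pups, clips closed the uterine arteries of the anesthetized mother for 14 min at E16.5, late in gestation. The control group was 4 pups of the same strain, sex and age, and the labels do not say whether their mothers had a sham operation. The labels also do not say which pups shared a litter, so p-values measure the spread between the sampled pups. No transgene or deletion is named for either group.

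Cholesterol is built from acetyl-CoA through mevalonate, isoprenoid diphosphates, squalene and lanosterol. The brain makes its own cholesterol because lipoproteins of the blood do not cross the blood-brain barrier, and demand is high while neurons and, later, myelin grow. When sterol in the endoplasmic reticulum is low, Scap carries SREBP proteins to the Golgi apparatus, where proteases free the part that activates the genes of the pathway. When sterol is high, Insig proteins hold the complex back.

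Because SREBP proteins act on promoters together with NF-Y or Sp1, 3 promoters are shown: a textbook target of SREBP-2 and the promoters of the 2 late sterol enzymes with the smallest p-values below. They are RefSeq sequences of build GRCm38.p6, the 250 bases before the annotated start, 5′ to 3′ on the gene's strand. Capitals mark the box CCAAT, bound by NF-Y, on either strand (ATTGG on the other) and, in Hmgcs1, the sterol regulatory element core.
Hmgcs1 (chr13:119690101-119690350, plus strand): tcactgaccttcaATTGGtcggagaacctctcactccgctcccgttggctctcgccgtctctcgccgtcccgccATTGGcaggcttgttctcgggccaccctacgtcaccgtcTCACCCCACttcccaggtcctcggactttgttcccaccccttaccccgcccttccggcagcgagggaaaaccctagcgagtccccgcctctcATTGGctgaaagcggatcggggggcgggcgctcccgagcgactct
Tm7sf2 (chr19:6067851-6068100, minus strand): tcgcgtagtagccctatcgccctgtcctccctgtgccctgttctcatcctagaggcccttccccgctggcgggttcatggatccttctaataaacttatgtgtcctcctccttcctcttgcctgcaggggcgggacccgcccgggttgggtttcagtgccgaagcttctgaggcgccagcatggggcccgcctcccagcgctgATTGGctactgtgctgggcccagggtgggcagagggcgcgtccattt
Sc5d (chr9:42264301-42264550, minus strand): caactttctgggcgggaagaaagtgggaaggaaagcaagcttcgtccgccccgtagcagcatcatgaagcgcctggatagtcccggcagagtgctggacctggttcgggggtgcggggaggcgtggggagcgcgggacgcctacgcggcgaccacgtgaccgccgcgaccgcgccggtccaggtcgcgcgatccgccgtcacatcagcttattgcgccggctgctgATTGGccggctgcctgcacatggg
Promoter sequences were matched for 23 of the 28 genes, in windows from 250 bases before to 50 bases after the start. Motifs were searched on both strands. A CCAAT box was present in 21 of 23 genes, 91.3%, against 41.1% of all genes in the table. The Sp1 box GGGCGG was present in 21 of 23 as well, 91.3%, against 38.2%. The E-box CACGTG was found in 5 of 23, 21.7%, against 8.09%. The sterol element core TCACNCCAC was present in 1 of 23, Hmgcs1, where it spans bases 137 to 129 before the start, against 1.44% of all genes. In the printed windows Hmgcs1 has 3 CCAAT boxes, and Tm7sf2 and Sc5d have 1 each. A match to these letters is a description of sequence and no measure of binding.

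Each value below is a level on the log2 scale, the probe's signal over the 75th percentile of its array, so that 0 is the level of that percentile. A difference is the ischemia mean minus the control mean. The percentile lay between 305.6 and 393.3 signal units and was lowest in control replicate 2, and 0 spots were saturated. Signal was well above background on 8 of 8 arrays for 27 of the 28 genes, and for Soat1 on 3 of 4 control and 4 of 4 ischemia arrays. Of 13 markers listed for cortical neurons, 13 passed the filter on dim probes. This filter kept 27131 of 55681 probes, markers of choroid plexus among them, so passing it does not check the label of cortex. Some ischemia arrays stood apart in markers of neighbouring tissue. The summed level of 5 measured choroid plexus markers was 0.859 to 1.06 in controls and 0.673 to 113.7 in ischemia, with the top value in ischemia replicate 4. The sum of 10 meningeal markers was 3.60 to 4.74 in controls and 3.77 to 16.2 in ischemia, high in ischemia replicates 1 and 4. Ischemia replicate 3, at 5.40, also lay above every control. For the 28 genes, counts by p-value and by overlap are therefore also given without ischemia replicates 1 and 4, which leaves replicate 3 in. Other counts use all 8 arrays unless stated.

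No gene of sterol synthesis or handling passed the test between the groups. With limma and adjustment over all genes, 0 of 28 had an adjusted p under 0.05, and 1 of all 19751 genes did (0.00506%). At an unadjusted p under 0.05, 3 of the 28 were lower in ischemia (Tm7sf2, Sc5d and Pmvk), where 7.65% of all genes were, and 0 were higher, where 3.25% of all genes were. The 2 groups did not overlap in 2 genes, both lower in ischemia (Tm7sf2 and Pmvk), where 4.28% of all genes were lower without overlap and 2.27% higher. Without ischemia replicates 1 and 4 the counts at an unadjusted p under 0.05 were 2 lower, beside 7.88% of all genes, and 0 higher, beside 3.51%. Without these arrays the groups stood apart in 2 lower genes, Tm7sf2 and Pmvk, beside 13.7% of all genes, and in 1 higher gene, Ggps1, beside 8.35%. The count of 3 lower genes was 1 without control replicate 1, 3 or 4 or without ischemia replicate 2 or 4, and Tm7sf2 was that gene each time. In a bulk sample, fewer cells of a type and less RNA per cell cannot be told apart.

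The differences of the 28 genes were small. They lay between -0.33 (Tm7sf2) and 0.20 (Npc1), with a median of -0.01 beside -0.02 for all genes. In direction, 16 were lower and 12 higher, so 57.1% were lower, beside 57.0% of all genes. The median size of the difference was 0.072 here and 0.089 over all genes. The 95% interval of the difference lay within 1.5-fold in either direction for 28 of 28 genes, which held for 82.2% of all genes. These probes also varied less between pups of one group, with a median within-group SD of 0.112 against 0.135. A difference of 1.5-fold or more thus lay outside the interval of the brightest kept probe of each gene. No interval was computed for the other kept probes, so this bound does not cover them. Among those, the second Tm7sf2 probe had a larger difference than the first, -0.43 (SE 0.09).

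**Figure D1:**
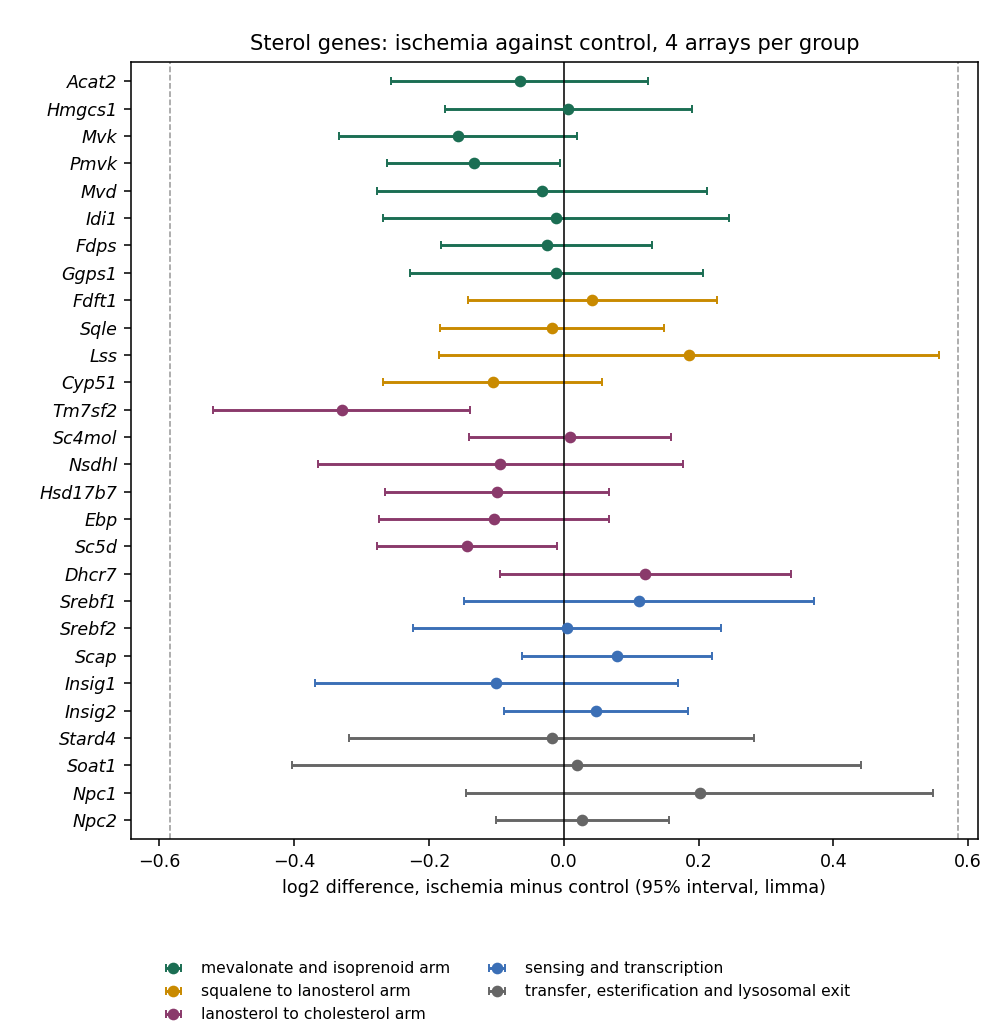
Difference between ischemia and control for each of the 28 genes, as log2 with its 95% interval from limma (4 arrays per group), coloured by role. Dashed lines stand at 1.5-fold. All 28 intervals lie within them, and those of Tm7sf2, Pmvk and Sc5d leave out 0.

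Tm7sf2, an enzyme that reduces the C14 double bond left after lanosterol is demethylated, had the largest difference. Its brighter probe (mm9 chr19:6062882-6062941, minus strand) read 3.15, 3.42, 3.24 and 3.25 in control replicates 1 to 4. In ischemia replicates 1 to 4 it read 2.99, 2.92, 2.77 and 3.04. Every ischemia array lay below every control array. The means were 3.26 ± 0.11 and 2.93 ± 0.12 (SD, n = 4 each). The difference was -0.33 (SE 0.08, 95% interval -0.52 to -0.14), or -20.4% on the linear scale (95% interval -30.3% to -9.20%). The unadjusted limma p was 0.00382 and the adjusted p 0.261. Across the alternative settings the adjusted limma p ranged from 0.126 to 0.594.

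A second Tm7sf2 probe lies close by (mm9 chr19:6063541-6063600, minus strand) and gave the same order of groups. It read 0.91, 1.01, 0.85 and 0.85 in controls and 0.64, 0.48, 0.27 and 0.53 in ischemia, again without overlap. Its difference was -0.43 (SE 0.09, limma adjusted p = 0.250 in a fit over all kept probes). With any 1 array left out, the difference of the brighter probe stayed between -0.37 and -0.28, and without ischemia replicates 1 and 4 it was -0.41. The position of the probes within the transcript was not analysed here. Both probes report 1 transcript in the same pups and are not independent samples.

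The same step can be carried out by Lbr, the lamin B receptor, an inner nuclear membrane protein with sterol reductase activity, which belongs to a list of other sterol synthesis genes and not to the 28. Lbr read 0.08, 0.04, -0.16 and -0.10 in controls and -0.28, -0.23, -0.26 and -0.24 in ischemia. The groups did not overlap, and the ischemia arrays lay close together. The difference was -0.22 (SE 0.07, limma adjusted p = 0.329). In both genes of the C14 step the 4 ischemia values were thus the 4 lowest, and neither gene passed the adjusted threshold. Tm7sf2 has the smallest p of the 28, and Lbr was named here for the smallest p of its list. Of all genes, 4.28% were lower without overlap, so the likeness of the 2 genes is a description only. In a joint list of radial glia and dividing progenitor markers, 13 of 15 measured had a negative difference, with a median of -0.23. Of these, 8 had an unadjusted limma p under 0.05, where 7.65% of all genes were lower at that threshold. They were Nes and the cell cycle genes Mki67, Ccnb1, Ccnb2, Cdk1, Bub1, Plk1 and Ccna2. The radial glia genes Pax6, Hes5, Sox2, Vim and Hes1 were at 0.07, 0.11, -0.01, -0.07 and -0.10, none under the threshold. The summed level of the 15 markers was 78.2 to 86.4 in controls and 75.4 to 85.0 in ischemia. Their part in the values of Tm7sf2 and Lbr was not tested.

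**Figure D2:**
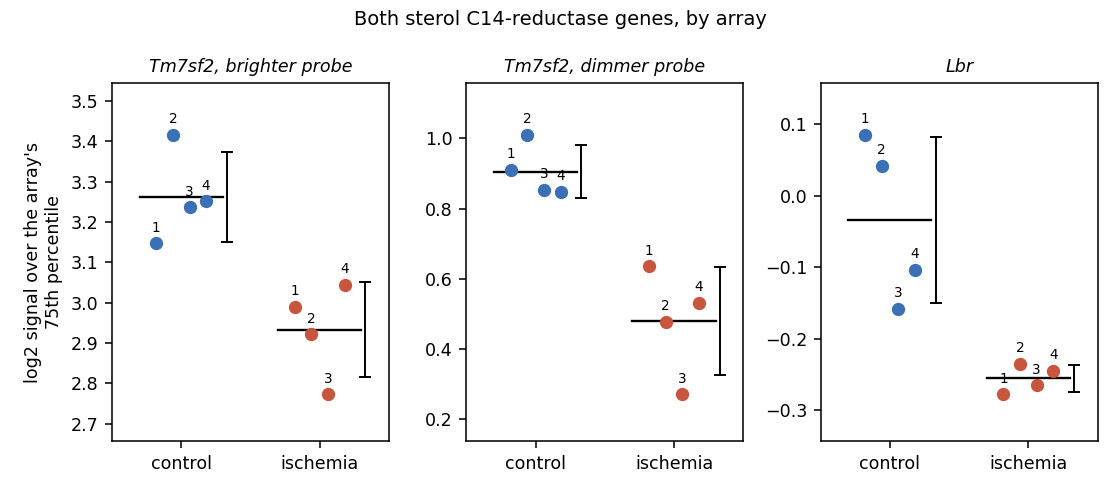
Level of both Tm7sf2 probes and of Lbr on each array, as log2 signal over the array's 75th percentile, with replicate numbers. Horizontal lines are group means and bars 1 SD (n = 4). In each panel the 4 ischemia arrays lie below the 4 control arrays.

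In the mevalonate and isoprenoid arm, 7 of 8 genes were lower and 1 higher, with a median of -0.03, and 0 of 8 passed the adjusted test. Pmvk, phosphomevalonate kinase, read 5.23, 5.14, 5.19 and 5.25 in controls and 5.14, 5.01, 5.03 and 5.09 in ischemia. The highest ischemia array lay just below the lowest control array. Its difference was -0.13 (SE 0.06, limma adjusted p = 0.443), and its second probe gave -0.08 with overlapping groups. Mvk, mevalonate kinase, the step before it, was at -0.16 (SE 0.08, limma adjusted p = 0.505). Acat2, the cytosolic thiolase that makes acetoacetyl-CoA, was at -0.07, and Mvd, which decarboxylates mevalonate diphosphate, at -0.03.

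Hmgcs1, which joins acetoacetyl-CoA and acetyl-CoA to HMG-CoA, had groups that overlapped throughout. It read 6.66, 6.42, 6.56 and 6.57 in controls and 6.48, 6.50, 6.73 and 6.52 in ischemia. Its difference was 0.01 (SE 0.08, 95% interval -0.18 to 0.19). The lowest value of all was in a control pup and the highest in an ischemia pup. The isoprenoid enzymes Idi1, Fdps and Ggps1, which make the building blocks for sterols and for lipid anchors of proteins, were at -0.01, -0.03 and -0.01. The 3 probes of Ggps1 gave -0.01, 0.21 and 0.02, and in the probe at 0.21 (limma adjusted p = 0.360 over probes) the ischemia arrays lay above all controls. That single probe does not stand for the gene.

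From squalene to lanosterol, 2 of 4 genes were higher and 2 lower, with a median of 0.01. Sqle, squalene epoxidase, the first oxygen-dependent step, read 5.72, 5.64, 5.68 and 5.83 in controls and 5.65, 5.58, 5.80 and 5.77 in ischemia. The groups covered nearly the same range, and the difference was -0.02 (SE 0.07, 95% interval -0.18 to 0.15). Fdft1, squalene synthase, was at 0.04. Lss, lanosterol synthase, was at 0.19 with a wide interval from -0.19 to 0.56, and its highest array, ischemia replicate 3, read 0.78 while the other 7 arrays lay between -0.13 and 0.38. Without that array Lss was at 0.05, and without control replicate 2 at 0.08. Cyp51, which demethylates lanosterol with oxygen, was at -0.11 (95% interval -0.27 to 0.06).

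From the C14 step on, the late sterol enzymes gave 5 lower and 2 higher of 7, Tm7sf2 included, with a median of -0.10. Sc5d, the oxidase that puts in the C5 double bond, read 1.87, 1.78, 1.91 and 1.85 in controls and 1.67, 1.69, 1.80 and 1.68 in ischemia. In ischemia, 3 of 4 arrays lay below every control, and ischemia replicate 3 lay apart from them, within the control range. The difference was -0.14 (SE 0.06, limma adjusted p = 0.433). The C4 demethylation enzymes Sc4mol, Nsdhl and Hsd17b7 were at 0.01, -0.09 and -0.10. Ebp, the sterol isomerase, was at -0.10, and Dhcr7, which reduces the last precursor to cholesterol in one branch of the pathway, at 0.12, or 0.05 without ischemia replicate 1. All 5 of these had overlapping groups and a 95% interval that held 0.

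The sensing and transcription genes had differences within the spread between pups. Srebf2, which encodes the SREBP protein that acts mainly on cholesterol genes, read 0.23, 0.18, 0.46 and 0.30 in controls and 0.23, 0.13, 0.52 and 0.31 in ischemia. The 2 groups cover the same range, with a difference of 0.00 (SE 0.10, 95% interval -0.22 to 0.23). Srebf1, whose products act mainly on fatty acid genes, read -2.43, -2.71, -2.41 and -2.57 in controls and -2.52, -2.61, -2.15 and -2.40 in ischemia. Its difference was 0.11 (SE 0.11), but -0.02 with normexp background correction, and 0.02 without ischemia replicate 3. Insig1, itself a target of SREBP, read 0.34, 0.40, 0.43 and 0.28 in controls and 0.19, 0.04, 0.61 and 0.22 in ischemia. Here 3 ischemia arrays lay below every control and 1, ischemia replicate 3, above every control, so that the ischemia SD was 0.25 against 0.06 and the difference -0.10 (SE 0.12). Without ischemia replicate 3 the Insig1 difference was -0.22 (limma adjusted p = 0.485), with an unadjusted p under 0.05. Scap and Insig2 were at 0.08 and 0.05.

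**Figure D3:**
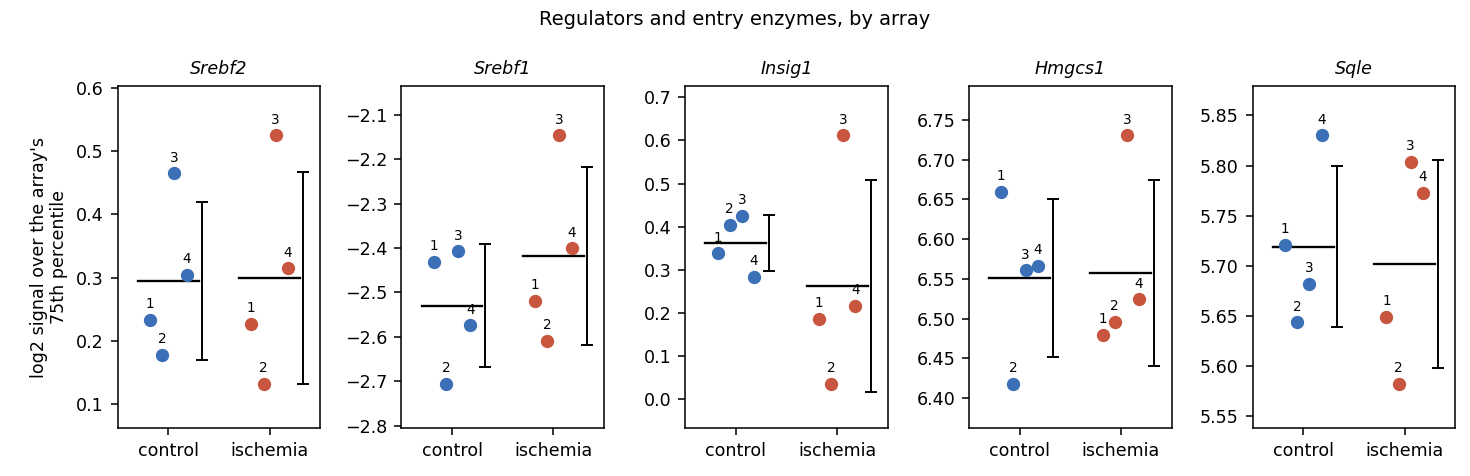
Level of Srebf2, Srebf1, Insig1, Hmgcs1 and Sqle on each array, as log2 signal over the array's 75th percentile, with replicate numbers, group means (lines) and 1 SD (bars, n = 4). The groups overlap in all 5 genes, and ischemia replicate 3 is the highest ischemia array in each.

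Among the genes of transfer, esterification and lysosomal exit, 3 of 4 were higher and 1 lower, with a median of 0.02. Npc1, the lysosomal membrane protein that passes cholesterol out of the lysosome, was at 0.20 (95% interval -0.15 to 0.55). It was the highest value of the 28 with all arrays in use, but leaving out control replicate 1 gave 0.06, below other genes, and leaving out control replicate 4 gave 0.30. Its partner Npc2, a soluble lysosomal carrier, was at 0.03. Stard4, a cytosolic sterol carrier, was at -0.02. Soat1, which esterifies cholesterol for storage, was at 0.02 with an interval from -0.40 to 0.44, and it was not well above background on 1 control array.

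Probes of one gene did not always point the same way. Of the 28 genes, 17 had 1 kept probe and 11 had more, and in 4 of these 11 the kept probes differed in sign: Ggps1, Hsd17b7, Insig2 and Stard4. Fdft1 and Hmgcs1 had a second, much dimmer probe with a larger positive difference than the first, 0.48 and 0.28, with overlapping groups in both. Both probes were near background: the Fdft1 probe was well above it on 3 of 4 control arrays and the Hmgcs1 probe on 1 of 4 control and 3 of 4 ischemia arrays, so these differences have little weight.

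Many of these genes shared an order of pups within a group. Within controls, replicate 2 had the lowest level in 22 of 28 genes, while it was the lowest control in 20.9% of all genes. Among the 19 enzymes it was the lowest in 17, Acat2 and Tm7sf2 being the exceptions. By role it was lowest in 7 of 8 genes of the mevalonate and isoprenoid arm, 4 of 4 from squalene to lanosterol and 6 of 7 from lanosterol to cholesterol, but in 2 of 5 sensing genes. Tm7sf2 stood opposite to the rest, with its highest value on that array. The mean of the 19 enzymes on control replicate 2 lay 0.12 below the control mean, and on replicates 1, 3 and 4 it lay 0.06, 0.03 and 0.02 above.

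Within ischemia, replicate 3 had the highest level in 15 of 28 genes, against 30.6% of all genes and 36.8% of those with a mean level above the 75th percentile, where 25 of the 28 lie, and replicate 2 the lowest in 13 of 28, against 21.3%. The 19 enzymes lay on average 0.08 above the ischemia mean on replicate 3, 0.03 above on replicate 1, and at -0.07 and -0.04 on replicates 2 and 4. Control replicate 2 also had the lowest 75th percentile of signal, and the part of that in the pattern was not tested. With the median, quantile or normexp scaling or the authors' value table, it was lowest in 22, 22, 19 and 21 of the 28. Ischemia replicate 3 was high in related genes too: in lists described below it was highest in 9 of 15 genes of SREBP processing, sensing and uptake and in 9 of 15 of fatty acid synthesis. Control replicate 2 was lowest in 3 and 7 of those. The order of pups was noticed in the data, is given as a description with no test, and the genes in it share arrays. Without control replicate 2 the median difference of the 28 genes was -0.07, and Tm7sf2 was at -0.28.

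**Figure D4:**
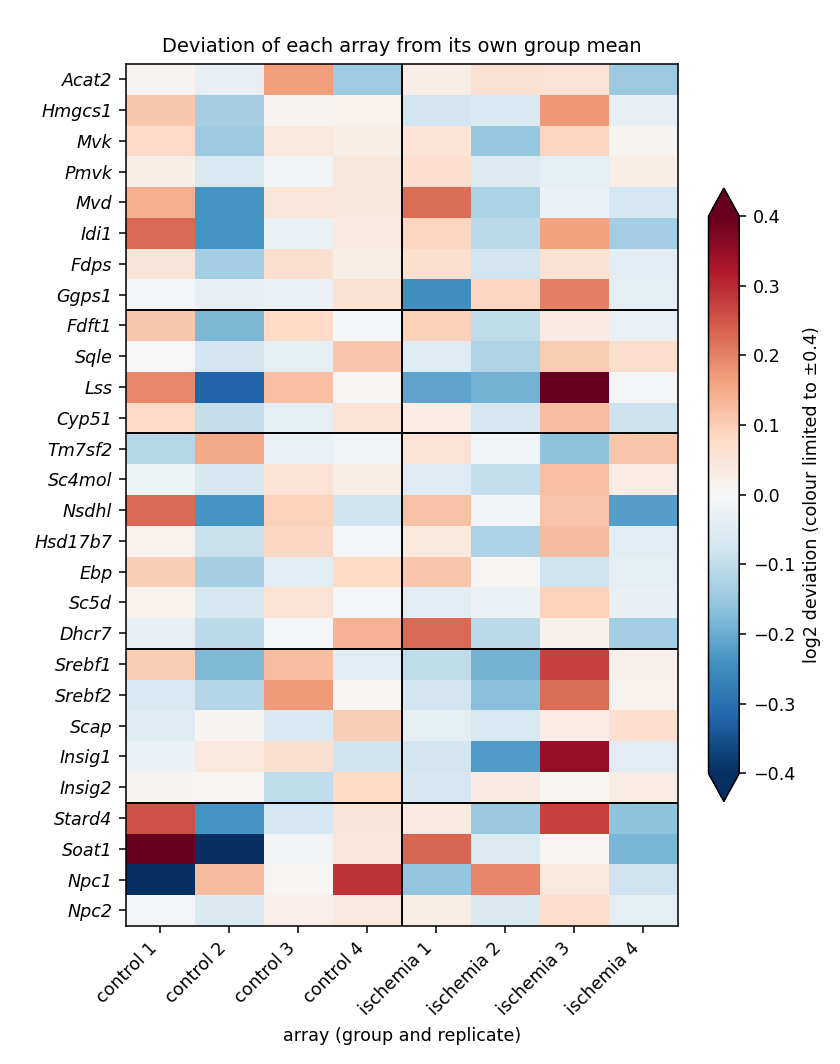
Deviation of each array from the mean of its own group for the 28 genes, as log2, in colour limited to 0.4 in either direction, with roles separated by lines. Control replicate 2 is blue in most rows, as the lowest control in 22 of 28, and ischemia replicate 3 is red in many, as the highest ischemia array in 15 of 28.

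Other genes of the same supply of sterols and lipids were read from 5 lists, of which 66 of 71 genes were measured. Among the 66, 42 were higher and 24 lower, where 57.0% of all genes were lower. The unadjusted limma p was under 0.05 for 4 higher and 5 lower genes, and 0 passed the adjusted test. At that unadjusted threshold 3.25% of all genes were higher and 7.65% lower. In other sterol synthesis, 1 of 7 was higher and 6 lower, led by Lbr, with Acat1, the mitochondrial thiolase, at -0.11 (SE 0.06). In SREBP processing, sensing and uptake, 11 of 15 were higher and 4 lower. Rxra, the partner of the liver X receptors, was at 0.61 (SE 0.15, limma adjusted p = 0.258), but its probe was well above background on 1 of 4 control and 3 of 4 ischemia arrays and gave 0.13 with normexp background correction. Nr1h3, a liver X receptor gene, was at 0.30 (SE 0.19), at 0.15 with normexp and at 0.14 without ischemia replicate 1.

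In fatty acid synthesis, 10 of 15 were higher and 5 lower. Me1, malic enzyme, which supplies NADPH, was at -0.19 (SE 0.06, limma adjusted p = 0.345), with the groups apart. Thrsp, a lipogenic gene responsive to thyroid hormone, was at 0.65 (SE 0.24, limma adjusted p = 0.396), with overlapping groups. Among other users of isoprenoid units, 7 of 12 were higher and 5 lower. Coq2, which attaches the side chain of ubiquinone, was at -0.16 (SE 0.06, limma adjusted p = 0.439), and Rabggtb, a subunit of Rab geranylgeranyl transferase, at 0.32 (SE 0.20). The Rabggtb value rests on ischemia replicate 1, the highest of the 4, and without it the difference was 0.10.

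The efflux, esterification, oxidation and transfer list gave 13 higher and 4 lower of 17. Cyp46a1, the neuronal enzyme that turns cholesterol into the hydroxysterol that leaves the brain, had the smallest p of all 66. It read -0.58, -0.56, -0.60 and -0.67 in controls and -0.88, -0.89, -1.01 and -0.80 in ischemia. Every ischemia array lay below every control, and the difference was -0.29 (SE 0.06, limma adjusted p = 0.233). Leaving out any 1 array kept it between -0.32 and -0.25. Abca1, the transporter that loads cholesterol onto apolipoproteins, read -0.09, -0.06, -0.18 and 0.01 in controls and 0.02, 0.15, 0.11 and 0.21 in ischemia. The groups stood apart by a narrow margin, with a difference of 0.20 (SE 0.07, limma adjusted p = 0.353).

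**Figure D5:**
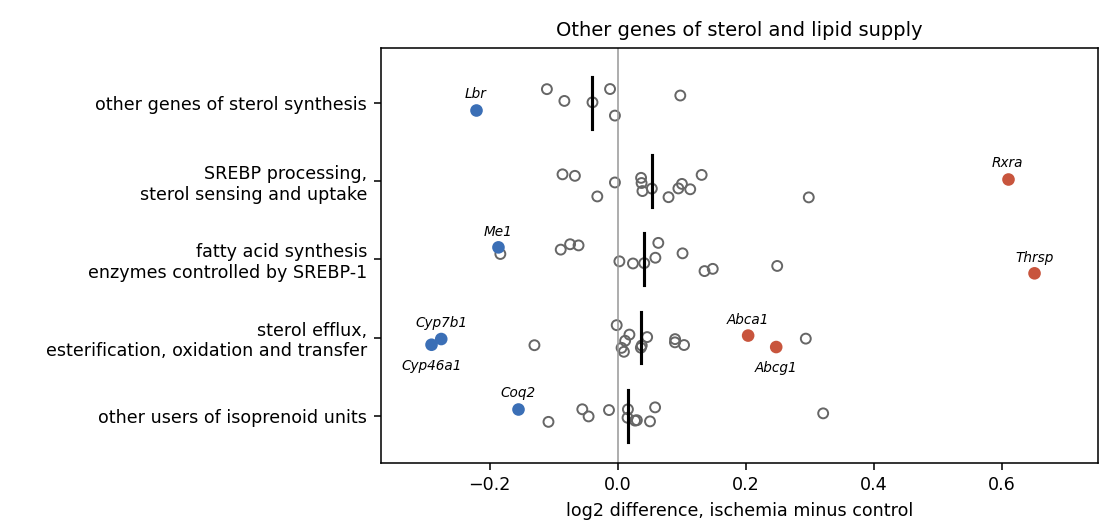
Difference between ischemia and control for 66 genes in 5 lists outside the 28, as log2, 1 point per gene, with the list median as a vertical bar. Filled and named points have an unadjusted limma p under 0.05 (blue lower, red higher), and 0 have an adjusted p under 0.05.

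Cell type markers were read beside these values. Of 11 measured markers of the oligodendrocyte lineage, 10 were higher and 1 lower, 0 at an unadjusted p under 0.05. Their summed level was 29.8 to 31.7 in controls and 35.8, 34.7, 30.5 and 29.4 in ischemia replicates 1 to 4. The late myelin gene Mobp was among 3 not measured above the filter. Of 10 astrocyte markers, 7 were higher, 2 at an unadjusted p under 0.05, and 3 lower, with sums of 215.4 to 250.9 in controls and 243.5 to 300.1 in ischemia. Neuron markers gave 4 higher and 9 lower of 13, 1 of the lower at that threshold, with sums of 614.5 to 652.1 and 566.0 to 636.7. Microglia markers gave 5 higher and 3 lower of 8, of which 3 higher and 1 lower were under the threshold. Endothelial markers gave 4 higher and 3 lower of 7, with 1 each way under it. Blood markers were lower in 6 of 6, 3 under it, with sums of 232.7 to 423.4 in controls and 175.1 to 302.2 in ischemia. At that threshold 3.25% of all genes were higher and 7.65% lower. The part of the listed cell types in the sterol values was not tested.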

How the data were processed

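Cy3 cRNA made from 50 ng of total RNA was hybridised and the images were quantified with Agilent Feature Extraction 10.7.3.1, per the submitters' processing notes. The authors deposited spot intensities on a linear scale, of which the background-corrected processed signal was used. The authors' value table is a ratio, the processed signal over 1 constant per array of unstated origin (tested on the brighter spots, within 0.0585%), with array medians of 0.0836 to 0.1003. Control spots and outlier spots were left out. Log2 signal was set against the array's 75th percentile, spots of a probe were averaged, and probes well above background on at least 4 of 8 arrays were kept (27131 of 55681, and 26 had been dropped for outlier flags). Each gene is given by its kept probe with the highest mean. Names follow RefSeq where a probe matched it, the other 24300 probes kept the name in the files, and probe positions are mm9, per the file headers.

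Groups were compared with limma 3.58.1 in R 4.3.3, adjusted by Benjamini-Hochberg over 19751 genes, and the script was tested on simulated data. The number of arrays limits the precision. All arrays share 1 slide, with controls in row 1 and ischemia in row 2, so slide row and group cannot be told apart. Outlier spots numbered 134 to 144 on control and 165 to 189 on ischemia arrays. Members and lists were chosen with earlier results of these data known. Given on every array were members with an unadjusted p under 0.05 or groups without overlap, and 5 fixed anchors. Of each further list, the 2 genes with the smallest p were named, and other genes were chosen after their values were seen. Alternatives covered background correction, scaling, filter, probe rule, variance model, replicate block, array weights, the authors' table and arrays left out.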

Additional observations from a re-analysis of the deposited data

Results flagged for a closer look

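Within groups of 4, the gap of the highest or lowest array to its neighbour was set against the whole range of the group for the 28 genes, 56 groups in all. In 1 of the 56 the ratio was past Dixon's 95% critical value for 4 samples, where chance gives about 1 in 20. It was Sc5d in ischemia, where replicate 3 lay above the other 3 arrays with a ratio of 0.854. Sc5d read 1.80 there and 1.67, 1.69 and 1.68 on replicates 1, 2 and 4. Without that array its difference was -0.17, against -0.14 with it.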

How the results depend on the processing

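Under 19 alternatives, 8 of which left out 1 array, 0 of the 28 genes had an adjusted p under 0.05 and 0 were higher at an unadjusted p under 0.05. The count of genes lower at an unadjusted p under 0.05 was 3. It was 1 with normexp, median scaling or no filter on dim probes, 2 with quantile normalization or the mean of probes, 4 with trended and robust variance or array weights, and ranged from 1 to 4 with 1 array left out. The median difference stayed between -0.07 and 0.02. Of all genes, 1 passed the adjusted test, against 0 with normexp, quantile normalization, the filter on all 8 arrays, no filter or without ischemia replicates 1 and 4, 20 with trended and robust variance, and 0 to 1 with 1 array left out. Tm7sf2, Pmvk and Sc5d were lower under each alternative. Of 531 single-gene values, 46 had the sign opposite to the unrounded main value, and 16 genes had none.

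Signs turned to these values, in genes with a main difference of at most 0.04 in size except Srebf1 at 0.11: Mvd 0.01, Idi1 0.00, Srebf1 -0.02, Srebf2 -0.01 and Soat1 -0.04 with normexp; Fdps 0.03 and Sqle 0.01 with quantile normalization; Stard4 0.03 and Ggps1 0.07 with the mean of probes; Hmgcs1 -0.01, Ggps1 0.00, Sc4mol -0.00, Srebf2 -0.02 and Soat1 -0.03 with array weights; Idi1 0.02, Stard4 0.04, Ggps1 0.13 and Soat1 -0.01 without ischemia replicates 1 and 4. With 1 array left out, the ranges were -0.11 to 0.02 for Mvd, -0.09 to 0.06 for Idi1, -0.11 to 0.07 for Stard4, -0.05 to 0.04 for Hmgcs1, -0.02 to 0.08 for Fdft1, -0.03 to 0.04 for Sc4mol, -0.14 to 0.17 for Soat1, -0.05 to 0.02 for Sqle, -0.07 to 0.06 for Srebf2, -0.07 to 0.00 for Fdps and -0.08 to 0.07 for Ggps1. The cause was not tested.

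The labels do not say whether replicate numbers pair the samples, and the correlations below cannot settle it. Deviations of same-numbered arrays correlated at 0.08, -0.06, 0.29 and 0.39, and the ischemia arrays 1 to 4 correlated best with controls 2, 1, 3 and 4. With the replicate block, 0 genes in all passed the adjusted test, and 2 of the 28 were lower at an unadjusted p under 0.05, Tm7sf2 and Mvk, while Pmvk and Sc5d were not.

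Group sizes of 4, unknown litters and a slide row shared with the group limit each comparison. Signal near background limits the values of Soat1, Rxra and the second probes of Hmgcs1 and Fdft1.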
